A study of Homo sapiens with 8 samples.

Results

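MYC and 39 genes whose products make ribosomes, 40 genes in all of the 57884 listed, were described in hTERT-RPE1 cells before and after serine and glycine were removed from the medium. The members were chosen by gene symbol from both deposited expression tables, and all 40 were found, at the same locus in both. They are 3 genes of the MYC network (MYC, MAX and MXD4), 15 factors of the small ribosomal subunit, 7 of the large subunit, 6 core proteins of small nucleolar ribonucleoprotein particles, 6 abundant or regulatory nucleolar proteins and 3 subunits of RNA polymerases I and III. The cells are a human retinal pigment epithelial line immortalized with telomerase. Wild-type cells and cells labelled ATF3(-/-), a knockout of a stress-induced transcription factor, were each sampled in complete medium (0 h) and after 8 h in serine/glycine-free medium. Each of these 4 groups holds 2 libraries of total RNA, 1 from each of 2 batches, and each batch has its own table of FPKM values (fragments per kilobase of transcript, scaled to the library's mapped fragments). The cells had 2 days in complete medium and were washed before the change, and the sources used here do not give whether the 0 h cultures were washed and given fresh medium, so the loss of serine and glycine cannot be told apart from 8 h in new medium. The sources used here do not say how the knockout was made or whether it is 1 clone.

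MYC is a transcription factor that binds DNA as a dimer with MAX, mostly at a short palindrome called the E-box, and MXD proteins such as MXD4 compete for MAX and act as repressors. Many genes for ribosome production are known MYC targets. In the nucleolus RNA polymerase I makes the long ribosomal RNA precursor, small nucleolar RNPs modify it, and separate sets of processing factors cut and fold it into the small and large subunits, while RNA polymerase III makes the 5S ribosomal RNA and transfer RNAs. Serine and glycine supply one-carbon units for purine synthesis, and RNA synthesis is a large user of purines.

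Every member was read at 1 FPKM or more in all 8 libraries, from 4.46 (GAR1 in wild type, complete medium, batch 2) to 1572 (NPM1 in wild type, serine/glycine-free medium, batch 1), so no member was lost to the filter on low values. FPKM sums ran from 2429662 to 3148153 per library, and small RNA genes held 60.5% to 65.7% of them. The tables carry no read counts and the depth is unknown. Log2 profiles of libraries correlated at 0.92 to 0.96 within a batch and at 0.77 to 0.82 across batches (Pearson's r across genes). ATF3 mRNA was present in the libraries labelled knockout, at 3.38 and 4.45 FPKM in batch 1 and at 20.8 and 57.3 in batch 2, against 3.47, 6.46, 3.65 and 18.0 in wild type, so its level does not check the label. Of 9 markers of retinal pigment epithelium, 5 (RPE65, RLBP1, TYR, TYRP1 and OTX2) stayed below 1 FPKM in all 8 libraries, and OTX2 was listed at 0. The others reached 1 FPKM in at least 1 library. MITF was read at 1.96 to 6.55 FPKM and SERPINF1 at 0.780 to 8.26, while BEST1 and PMEL reached at most 1.37 and 1.15. The batches stand apart in marker genes under both labels, although all 8 libraries are labelled as 1 cell line. The keratin KRT19 was read at 0 to 0.741 FPKM in batch 1 and at 216 to 375 in batch 2, the matrix protein gene SPARC at 343 to 429 and 0.0903 to 1.66, the collagen COL3A1 at 17.4 to 53.7 and 0 to 0.203, and TWIST1 at 0 to 0.153 and 5.39 to 12.8. Not every marker did so. In wild type, complete medium, batches 1 and 2 gave 28.8 and 28.7 FPKM for CDH2, 11.1 and 9.97 for ZEB1 and 809 and 598 for VIM. The keratins KRT8 (249 and 55.0) and KRT18 (90.9 and 47.2) were lower in batch 2 there, opposite to KRT19. Within batch 2 the 2 libraries labelled knockout stand apart again. There the epithelial cadherin CDH1 was read at 60.0 and 56.2 FPKM, against at most 1.23 in the other 6 libraries, and 12 markers of simple epithelium summed to 1671 and 1725 FPKM against 236 to 681. In these libraries 9 mesenchymal markers summed to 184.6 and 191 FPKM, against 696 to 1817 in the other 6. Immune markers summed to at most 1.05 FPKM and endothelial markers to at most 1.52 FPKM in any library. Replicates share a batch number, so p-values rest on 2 batches of cells.

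The promoters of members were searched for the E-box because it is the sequence that MYC and MAX are known to bind. RefSeq windows of 250 bases before to 50 after a gene's start (GRCh38.p14) were matched for 32 members, in 38 windows, and the remaining 8 are MYC, BOP1, RRS1, RRP12, RRP1B, NOP58, NOLC1 and POLR3G. The letters CACGTG, which read the same on both strands, were in 39.5% of the member windows and in 7.26% of all 35116 windows. They were found in 15 members, namely BYSL, DDX21, FBL, GAR1, GNL3, LTV1, MXD4, MYBBP1A, NOP14, NOP2, PES1, PNO1, RRP9, UTP20 and WDR43, and in 14 of them, all but MXD4, they begin within 40 bases of the start. A window holds these letters as a description of sequence, and no binding was measured here. The 5 windows below are shown because these members with an E-box had every serine/glycine-free library above every complete library, and capitals mark the E-box. They are the windows of WDR43 (chr2:28894417-28894716, plus strand), DDX21 at the later of 2 annotated starts (chr10:68956397-68956696, plus strand), PNO1 (chr2:68157638-68157937, plus strand), RRP9 (chr3:51941855-51942154, minus strand) and NOP14 (chr4:2963357-2963656, minus strand).
WDR43: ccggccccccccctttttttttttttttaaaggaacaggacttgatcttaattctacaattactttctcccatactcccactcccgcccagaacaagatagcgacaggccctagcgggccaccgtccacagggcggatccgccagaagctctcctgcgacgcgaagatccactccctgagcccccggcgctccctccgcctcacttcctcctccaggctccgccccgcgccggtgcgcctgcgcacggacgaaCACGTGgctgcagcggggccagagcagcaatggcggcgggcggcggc
DDX21: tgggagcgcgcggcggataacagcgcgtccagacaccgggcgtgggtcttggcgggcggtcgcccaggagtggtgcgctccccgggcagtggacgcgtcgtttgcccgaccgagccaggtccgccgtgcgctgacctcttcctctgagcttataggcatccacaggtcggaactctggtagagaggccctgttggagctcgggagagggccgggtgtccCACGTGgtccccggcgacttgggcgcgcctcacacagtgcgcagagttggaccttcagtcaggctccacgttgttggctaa
PNO1: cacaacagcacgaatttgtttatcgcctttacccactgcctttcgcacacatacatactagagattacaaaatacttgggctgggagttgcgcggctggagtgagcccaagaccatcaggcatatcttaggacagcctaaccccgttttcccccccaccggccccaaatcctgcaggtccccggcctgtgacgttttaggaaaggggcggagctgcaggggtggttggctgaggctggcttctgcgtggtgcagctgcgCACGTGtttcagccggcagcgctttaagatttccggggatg
RRP9: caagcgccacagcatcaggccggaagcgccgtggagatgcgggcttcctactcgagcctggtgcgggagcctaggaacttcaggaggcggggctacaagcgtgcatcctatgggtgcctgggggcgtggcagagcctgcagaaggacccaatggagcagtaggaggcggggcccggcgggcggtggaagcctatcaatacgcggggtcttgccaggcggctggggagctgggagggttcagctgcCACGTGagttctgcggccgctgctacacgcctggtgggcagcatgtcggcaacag
NOP14: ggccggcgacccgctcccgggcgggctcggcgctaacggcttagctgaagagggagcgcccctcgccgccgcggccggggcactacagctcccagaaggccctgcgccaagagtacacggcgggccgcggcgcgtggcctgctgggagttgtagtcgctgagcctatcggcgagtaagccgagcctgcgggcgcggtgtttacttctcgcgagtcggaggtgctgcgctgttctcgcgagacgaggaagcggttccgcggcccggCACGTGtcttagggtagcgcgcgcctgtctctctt
The E-box begins 3 bases after the annotated start in WDR43, 9 bases after it in PNO1 and 15 bases after it in NOP14, and 5 bases before it in RRP9 and 31 bases before it in DDX21. Of 2 further motifs searched on both strands, neither of which contains the E-box, the cyclic AMP response element TGACGTCA was in 1 member (DDX10, at 2 places) and in 1.85% of all windows. The amino acid response element TGATGNAAT, the kind of site bound by ATF4 dimers, was in 0 members and in 0.991% of all windows.

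After 8 h in serine/glycine-free medium, ribosome production genes were read at higher levels in both batches and under both genotype labels, and 4 of them rose past the test. These were WDR43 and RRP12 of the small subunit, the nucleolar helicase DDX21 and DKC1, the pseudouridine synthase of box H/ACA particles. The response was taken within 4 pairs of libraries (genotype label within batch), with limma on log2(FPKM + 1) over 17994 genes, each reaching 1 FPKM in 2 libraries or more. The 4 members called higher are 10% of the 40, beside 0.417% of all genes tested (75 genes) and 0.73% of protein-coding genes with a mean of 5 FPKM or more (65 of 8909). Members were chosen with earlier results of these data known, so such shares describe the set and do not test it. Not 1 member was called lower, beside 0.0611% of all genes (11 genes), and at an unadjusted p under 0.05 there were 28 members higher and 0 lower, beside 10.7% and 7.49% of all genes. Scaling each library by its median ratio changed the split over all genes from 75 higher and 11 lower (87.2% higher) to 64 higher and 21 lower (75.3%), with the same 4 members called. The 4 calls were lost under 13 of 17 alternative settings, among them leaving out any 1 library, a block by batch alone and no filter on low values, where 0 members were called. In bulk RNA, a change in the share of cells that make a transcript and a change in its amount per cell cannot be told apart.

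The direction was more widely shared than the calls, in members chosen with earlier results of these data known. The shares below are therefore descriptions. In all 4 pairs 30 members (75%) were read higher in serine/glycine-free medium, beside 14.6% of all genes and 20.7% of protein-coding genes with a mean of 5 FPKM or more. A further 3 members were higher in 3 pairs, 5 in 2 pairs and 2 in 1 pair, and 0 were lower in all 4 (11.4% of all genes). The median log2 fold change over the 40 members was 0.34, against 0.02 over all genes tested. By pair the member median was 0.35 in wild type and 0.41 in the knockout label in batch 1, and 0.25 and 0.31 in batch 2. In 10 members (25%, beside 1.79% of all genes) all 4 serine/glycine-free libraries lay above all 4 complete libraries, namely DDX21, DDX10, NOP14, PNO1, RRP12, RRP9, TSR1, UTP15, WDR43 and DKC1. Responses were not larger in abundant members, with a Spearman correlation of −0.08 across the 40 genes between the level in complete medium and the mean response, as a description. Without both batch 2 libraries labelled knockout, 0 members were called, 30 members were higher in every remaining pair and the member median was 0.33.

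**Figure D1:**
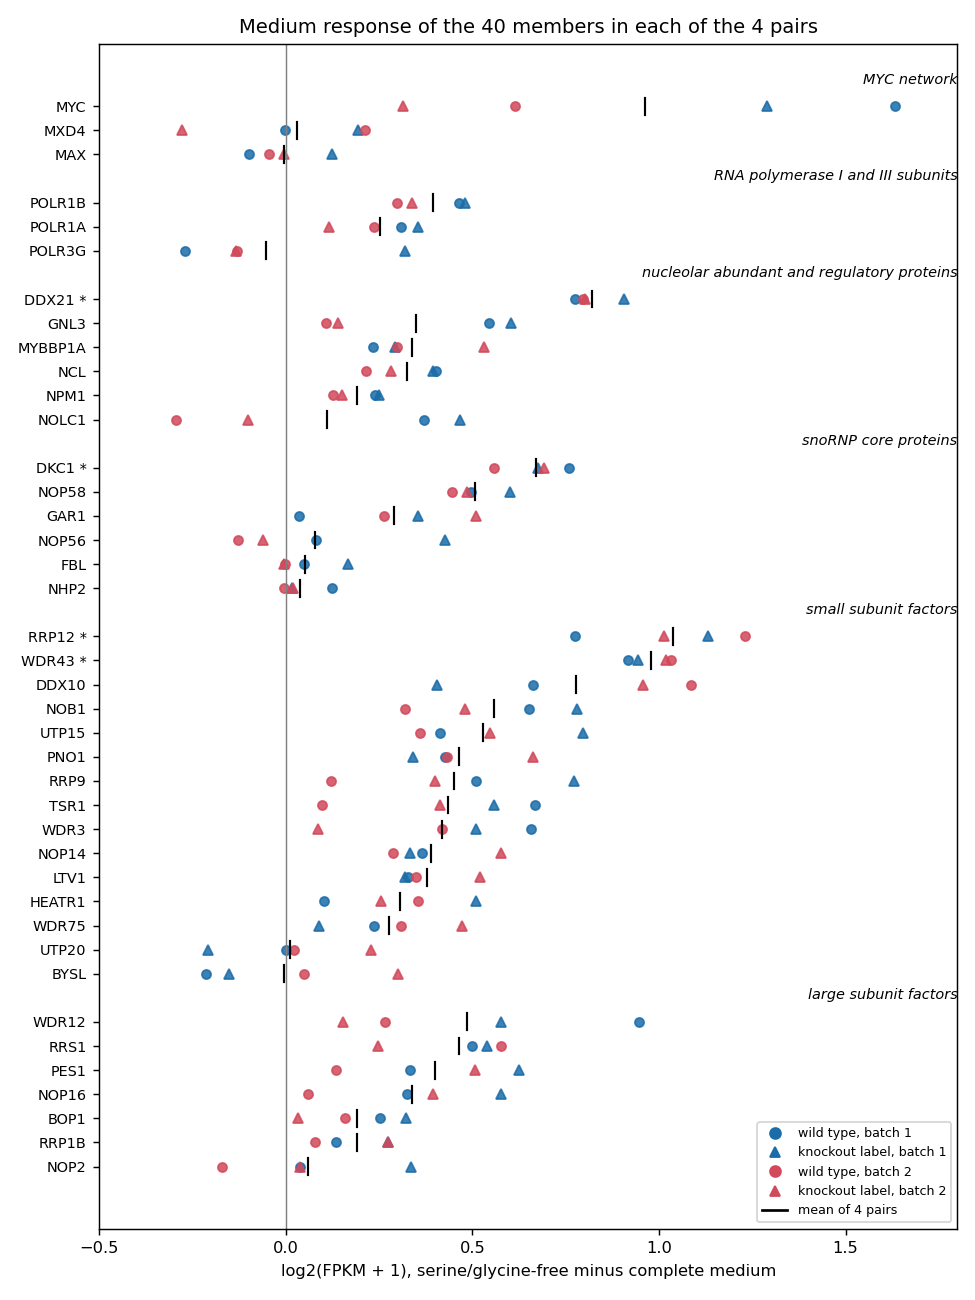
Medium response of each of the 40 members, as the log2 fold change of FPKM + 1 (serine/glycine-free minus complete medium, horizontal axis), with 1 marker for each genotype label and batch. Genes are grouped by role, and 30 members have all 4 markers to the right of 0.

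**Figure D2:**
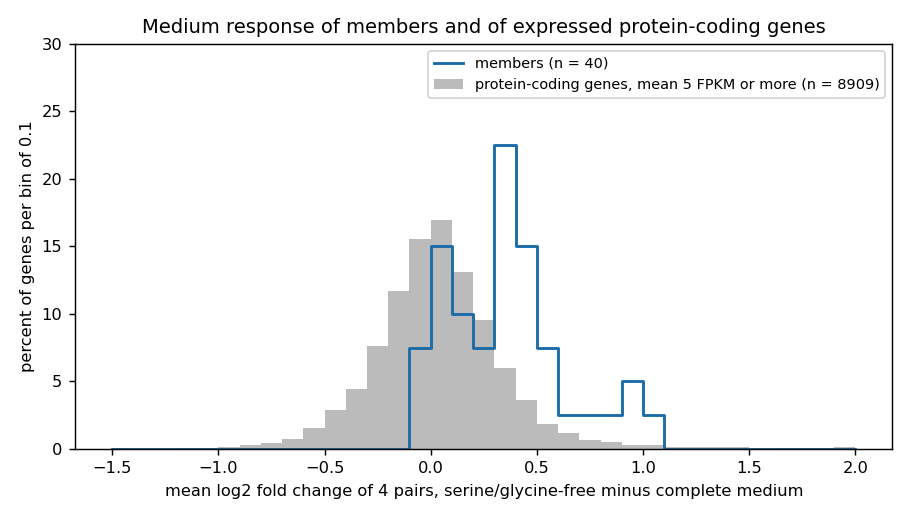
Share of genes (percent, vertical axis) by mean log2 fold change over the 4 pairs (horizontal axis, bins of 0.1), for the 40 members (line) and for 8909 protein-coding genes with a mean of 5 FPKM or more (grey), which include members. The member median is 0.34 and the median of the grey genes is 0.03.

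Small subunit factors had the highest median response of the 6 role groups, 0.43, with 2 of 15 called and 13 higher in all 4 pairs. That order did not hold outside the members. There, 40 other small subunit factors had a median of 0.22, below the 0.31 of 42 other large subunit factors. WDR43, a subunit of the complex that starts small-subunit processing on nascent ribosomal RNA, went from 55.0 to 105 FPKM in wild type and from 32.3 to 63.1 in the knockout label in batch 1. Batch 2 gave 39.3 and 81.3 FPKM in wild type and 34.8 and 71.5 in the knockout label, complete medium first. The 4 serine/glycine-free libraries lay above the 4 complete libraries, and the geometric mean ratio was 1.99-fold, a log2 change of 0.98 ± 0.06 (SE, n = 4 pairs, limma adjusted p = 0.0251). RRP12, which takes part in the maturation and export of pre-ribosomal subunits, rose from 10.6 to 18.9 FPKM in wild type and from 14.2 to 32.4 in the knockout label in batch 1, and from 6.99 to 17.7 and from 6.94 to 15.0 in batch 2. Its media did not overlap either, and its log2 change was 1.04 ± 0.11 (limma adjusted p = 0.0407), the largest of any member. Its highest level was in the serine/glycine-free knockout label of batch 1.

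DDX10, a DEAD-box RNA helicase of small-subunit processing, is shown for its size, after its values were seen. Its wild-type libraries were read at 12.3 FPKM in complete and 20.0 in serine/glycine-free medium in batch 1, and at 12.4 and 27.5 in batch 2. In the knockout label the values were 14.3 and 19.2, then 13.6 and 27.3. Its media did not overlap, with a log2 change of 0.78 ± 0.13 that did not pass (limma adjusted p = 0.0838), and both batch 2 pairs were above both batch 1 pairs. NOB1, the endonuclease that makes the final cut of small-subunit ribosomal RNA, and PNO1, its binding partner, had log2 changes of 0.56 and 0.47, neither past the test (limma adjusted p = 0.0941 and 0.0937). UTP15, which like WDR43 acts early in small-subunit processing, had 0.53, and RRP9, a protein of the U3 particle that guides the first cuts, had 0.45. Late factors that stay on the small subunit until it reaches the cytoplasm, TSR1 and LTV1, had 0.43 and 0.38. Other members of the processome had 0.42 (WDR3), 0.39 (NOP14), 0.31 (HEATR1) and 0.28 (WDR75). In each of these 10 genes the 4 pairs were all higher in serine/glycine-free medium, and none passed.

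UTP20 and BYSL were the exceptions in the group. UTP20, a large scaffold protein of the processome, was read at 9.87 and 9.88 FPKM in wild type and at 10.95 and 9.35 in the knockout label in batch 1, complete medium first. The same order in batch 2 gave 12.9, 13.1, 9.88 and 11.7 FPKM. Its media overlapped in both batches, with a log2 change of 0.01 ± 0.11 whose 95% confidence interval ran from −0.26 to 0.28. The sign of UTP20 turned to −0.03 under median-ratio scaling. BYSL, an adaptor of small-subunit maturation, had log2 changes of −0.21 in wild type and −0.15 in the knockout label in batch 1 and of 0.05 and 0.30 in batch 2.

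**Figure D3:**
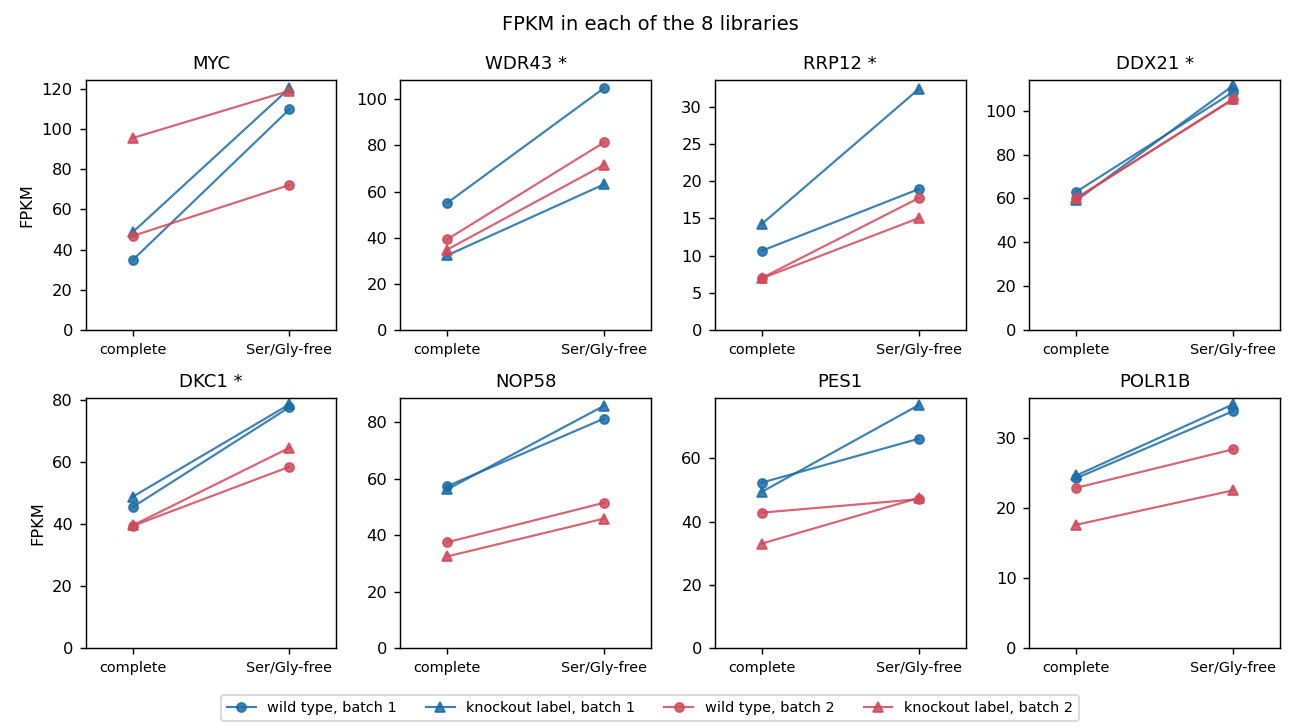
FPKM (vertical axis, from 0) of MYC, the 4 members called (asterisk), NOP58, PES1 and POLR1B in complete and serine/glycine-free medium, with the 2 libraries of a pair joined by a line and marked by genotype label and batch. The lines of WDR43, RRP12, DDX21 and DKC1 climb in all 4 pairs, and those of MYC climb more steeply in batch 1.

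Factors of the large subunit had a median response of 0.34, with 0 of 7 called and 6 higher in all 4 pairs. PES1, BOP1 and WDR12 form a complex required for large-subunit processing, and their log2 changes were 0.40, 0.19 and 0.49. PES1 was read at 52.3 and 66.2 FPKM in wild type and at 49.4 and 76.8 in the knockout label in batch 1, complete medium first, and at 42.9, 47.1, 33.1 and 47.5 in batch 2. Within each batch its serine/glycine-free libraries lay above its complete libraries, though not across batches, and it did not pass (limma adjusted p = 0.137). RRS1, which helps load the 5S particle, was read in batch 1 at 10.8 and 15.6 FPKM in wild type and 8.25 and 12.4 in the knockout label. Batch 2 gave 13.8, 21.1, 21.6 and 25.9 FPKM in the same order, and the log2 change was 0.47 ± 0.10 (limma adjusted p = 0.103). RRS1 was higher in serine/glycine-free medium in every pair, but its highest complete library, the batch 2 knockout label, was above 3 of the 4 serine/glycine-free libraries. WDR12 had pair changes of 0.95 and 0.58 in batch 1 and 0.26 and 0.15 in batch 2. NOP16 and RRP1B had 0.34 and 0.19, while NOP2, a methyltransferase of large-subunit ribosomal RNA, had 0.06, with its wild-type pair in batch 2 at −0.17.

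Among 6 abundant or regulatory nucleolar proteins the median response was 0.33, with 1 called and 5 higher in all 4 pairs. DDX21, an RNA helicase that works in ribosomal RNA transcription and processing, went from 63.0 to 108.6 FPKM in wild type and from 59.1 to 112 in the knockout label in batch 1, and from 60.1 to 105 and from 60.0 to 105 in batch 2. Its complete libraries lay within 59.1 to 63.0 FPKM and its serine/glycine-free libraries within 105 to 112, so that neither batch nor genotype label moved it as far as the medium. The log2 change was 0.82 ± 0.06 (limma adjusted p = 0.0264), a ratio of 1.78-fold. NCL, nucleolin, was read at 109.1 and 144 FPKM in wild type and 67.4 and 88.9 in the knockout label in batch 1, complete medium first, and at 78.5, 91.3, 65.7 and 80.1 in batch 2. It was higher in every pair by a similar step, a log2 change of 0.32 ± 0.07 (limma adjusted p = 0.103), but its media overlapped because wild type in batch 1 was high in both. GNL3, nucleostemin, had 0.35, MYBBP1A, a nucleolar binding partner of transcription factors, had 0.34, and NPM1, nucleophosmin, the most abundant member, had 0.19, all higher in 4 of 4 pairs and none past the test. NOLC1, a chaperone of small nucleolar RNPs, did not share the direction, with pair changes of 0.37 and 0.47 in batch 1 and of −0.30 and −0.10 in batch 2.

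Core proteins of small nucleolar RNPs had a median of 0.19, with 1 of 6 called and 3 higher in all 4 pairs. DKC1, dyskerin, rose from 45.6 to 77.8 FPKM in wild type and from 48.9 to 78.7 in the knockout label in batch 1, and from 39.5 to 58.6 and from 39.6 to 64.7 in batch 2. Its media did not overlap, and the log2 change was 0.67 ± 0.07 (limma adjusted p = 0.0398). NOP58, a scaffold of the box C/D particles that guide ribose methylation, was read at 57.3 and 81.2 FPKM in wild type and 56.2 and 85.8 in the knockout label in batch 1. In batch 2 it was read at 37.5, 51.5, 32.5 and 45.9. It was higher in all 4 pairs, by 0.51 ± 0.07, and narrowly missed the threshold (limma adjusted p = 0.0543). The other proteins of the same particles did not pass. FBL, the methyltransferase of box C/D particles, had 0.05 and its partner NOP56 had 0.08, while in box H/ACA particles NHP2 had 0.04 and GAR1, higher in all 4 pairs, had 0.29. For NHP2 the 95% confidence interval of the log2 change ran from −0.11 to 0.18, and for FBL from −0.11 to 0.22. Differences between members of 1 particle were not tested.

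The 3 polymerase subunits had a median of 0.25 and 0 called, and both RNA polymerase I members were higher in every pair. POLR1B, the second-largest subunit, was read at 24.3 and 33.9 FPKM in wild type and 24.7 and 34.9 in the knockout label in batch 1, complete medium first, and at 22.9, 28.5, 17.7 and 22.6 in batch 2. POLR1A, the catalytic subunit, was read at 9.38, 11.9, 12.3 and 16.0 FPKM in batch 1 and at 8.72, 10.4, 9.78 and 10.7 in batch 2, in the same order. The media of both genes overlapped across all 8 libraries, and the log2 changes were 0.40 ± 0.08 and 0.25 ± 0.09 (limma adjusted p = 0.0947 and 0.251). POLR3G, a subunit of RNA polymerase III, had −0.05 and was lower in 3 of 4 pairs. Its level set the batches apart instead, at 6.77 to 9.09 FPKM in batch 1 and 27.2 to 32.6 in batch 2, in tables that were normalized separately.

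MYC itself had 1 of the 3 largest mean changes and the widest spread over pairs. In batch 1 it was read at 34.7 FPKM in complete and 109.8 in serine/glycine-free medium in wild type, and at 48.6 and 120.3 in the knockout label. The batch 2 values were 46.8 and 72.1 FPKM in wild type and 95.5 and 119 in the knockout label. All 4 pairs were higher in serine/glycine-free medium, by log2 changes of 1.63 and 1.29 in batch 1 and 0.61 and 0.31 in batch 2. The media overlapped, because the knockout label in batch 2 had 95.5 FPKM already in complete medium, more than wild type reached there without serine and glycine. The mean log2 change was 0.96 ± 0.23 and did not pass (limma adjusted p = 0.128), and the SD over pairs was 0.61, against 0.06 for WDR43 and 0.06 for DDX21. With only protein-coding genes tested, 12 members were called higher among 413 genes called higher of 13080, MYC with them (limma adjusted p = 0.0379). BOP1, without a matched gene type, was not in that test. With only genes at 1 FPKM or more in all 8 libraries, 12 members were called higher among 423 genes, again with MYC (limma adjusted p = 0.0390). The number of genes tested under that filter is not given here. In both settings more of all genes were called than in the main fit.

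MAX and MXD4, the other members of the MYC network, had changes near 0. MAX was read at 36.3, 33.8, 33.2 and 36.3 FPKM in batch 1 (wild type complete, wild type serine/glycine-free, then the knockout label in the same order) and at 77.9, 75.5, 49.5 and 49.3 in batch 2. In that order MXD4 was read at 12.7, 12.7, 14.3 and 16.5 FPKM in batch 1 and at 8.76, 10.3, 9.90 and 7.99 in batch 2. The media of both overlapped in each batch. The log2 change of MAX was −0.01, with a 95% confidence interval from −0.18 to 0.17, and that of MXD4 was 0.03, from −0.26 to 0.33, and the sign of MXD4 turned to −0.01 under median-ratio scaling.

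Members with and without an E-box in the window had close medians of the medium response. The median log2 change was 0.35 over the 15 with the letters, 2 of them called (WDR43 and DDX21), and 0.34 over the 17 matched members without, 1 of them called (DKC1). The range was −0.00 to 0.98 with the letters and −0.01 to 0.78 without, and the difference was not tested.

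Taken by genotype label, the response had the same direction with and without the knockout label, at a lower precision. This fit was blocked by batch and not by pair, so label differences that vary by batch stayed in its spread. In wild type 35 of 40 members were positive, with a median of 0.29 against 0.02 over all genes tested. The share of all genes that were positive was not counted for either label. Of the 40 members 0 were called in wild type, beside 0.0389% of all genes called higher (7) and 0.0167% lower (3). At an unadjusted p under 0.05 there were 11 members higher and 0 lower (3.72% and 1.92% of all genes), and the smallest adjusted p of a member was 0.388 (DDX21, limma). In the knockout label 39 of 40 were positive, with a median of 0.39 against 0.01 over all genes tested. Under that label 0 members were called, beside 0.0111% of all genes higher (2) and 0.00556% lower (1). Also under it, 13 members were higher and 0 lower at an unadjusted p under 0.05 (3.34% and 2.25% of all genes). There the smallest adjusted p was 0.428, again for DDX21 (limma). For DDX21 the log2 change was 0.79 ± 0.13 in wild type and 0.85 ± 0.13 in the knockout label, and for WDR43 it was 0.97 ± 0.21 and 0.98 ± 0.21 (SE, n = 2 batches).

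The difference of responses between labels was tested as an interaction, and 0 of 40 members passed, beside 0.0278% of all genes called higher (5) and 0.0333% lower (6). At an unadjusted p under 0.05 there were also 0 members in either direction (0.678% of all genes higher and 0.856% lower). This fit was blocked by batch and not by pair, so label differences that vary by batch stayed in its spread. Over all genes 276 had an unadjusted p under 0.05, where 899.7 would be expected with no difference. The test was therefore conservative, and 0 members called does not show equal responses. The member median of this difference was 0.07, against −0.02 over all genes tested, and 30 of 40 members had a larger response in the knockout label. The share of all genes with a larger response there was not counted. PES1 had the smallest p, with a difference of 0.33 ± 0.22 and a 95% confidence interval from −0.22 to 0.88 (limma, unadjusted p = 0.188, adjusted p = 1.00). UTP20 had the largest p, with a difference of −0.00 and an interval from −0.73 to 0.73. For the 4 genes called over pairs the interval ran from −0.39 to 0.52 (DDX21), from −0.46 to 0.51 (DKC1), from −0.73 to 0.74 (WDR43) and from −0.88 to 1.02 (RRP12). Each of these intervals includes 0, and their width does not show that the labels responded alike.

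Comparing the labels within a medium, 0 members were called in complete medium, beside 0.0111% of all genes higher (2) and 0.0222% lower (4), and 0 in serine/glycine-free medium, beside 0.0111% higher (2) and 0.0389% lower (7). In each medium 1 member was higher and 1 lower at an unadjusted p under 0.05, BOP1 and NHP2 both times, beside 1.92% of all genes higher and 2.86% lower in complete medium and 1.98% and 3.88% in serine/glycine-free medium. NHP2, a core protein of box H/ACA particles, was read in complete medium at 165 FPKM for wild type and 104 for the knockout label in batch 1, and at 202 and 159.9 in batch 2. In serine/glycine-free medium it was read at 179.5 and 105, then at 202 and 162. The knockout label was lower in all 4 comparisons, with log2 differences of −0.50 ± 0.17 in complete and −0.54 ± 0.17 in serine/glycine-free medium ( limma adjusted p = 0.857 and 0.801). BOP1 was higher in all 4, at 42.5 and 56.8 FPKM in complete medium in batch 1 and 34.1 and 47.1 in batch 2, wild type first, with log2 differences of 0.43 ± 0.15 in complete and 0.40 ± 0.15 in serine/glycine-free medium (limma adjusted p = 0.857 and 0.801). In serine/glycine-free medium BOP1 was read at 50.8 and 71.2 FPKM in batch 1 and at 38.1 and 48.2 in batch 2.

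The knockout label was lower in all 4 comparisons in 7 members (GNL3, NCL, NHP2, NPM1, WDR3, WDR43 and WDR75) and higher in 8 (BOP1, BYSL, DKC1, GAR1, MYC, NOB1, NOP14 and POLR1A). The share of all genes that kept 1 direction in all 4 was not counted, so these counts are not read as a trait of the members. In complete medium 16 of 40 members were lower in both batches (beside 25.7% of all genes), 10 were higher in both (beside 20.4%) and 14 went opposite ways. Without serine and glycine the counts were 10 lower (beside 27.8%), 15 higher (beside 20.2%) and 15 opposite. The member median was −0.09 in complete and 0.02 in serine/glycine-free medium. MYC was higher in the knockout label by 0.74 ± 0.36 in complete medium (limma adjusted p = 0.857), and most of that came from batch 2, where the 2 values were 46.8 and 95.5 FPKM, against 34.7 and 48.6 in batch 1. Epithelial marker sums were also highest in the batch 2 knockout label, as given above, and their part in the difference was not tested.

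**Figure D4:**
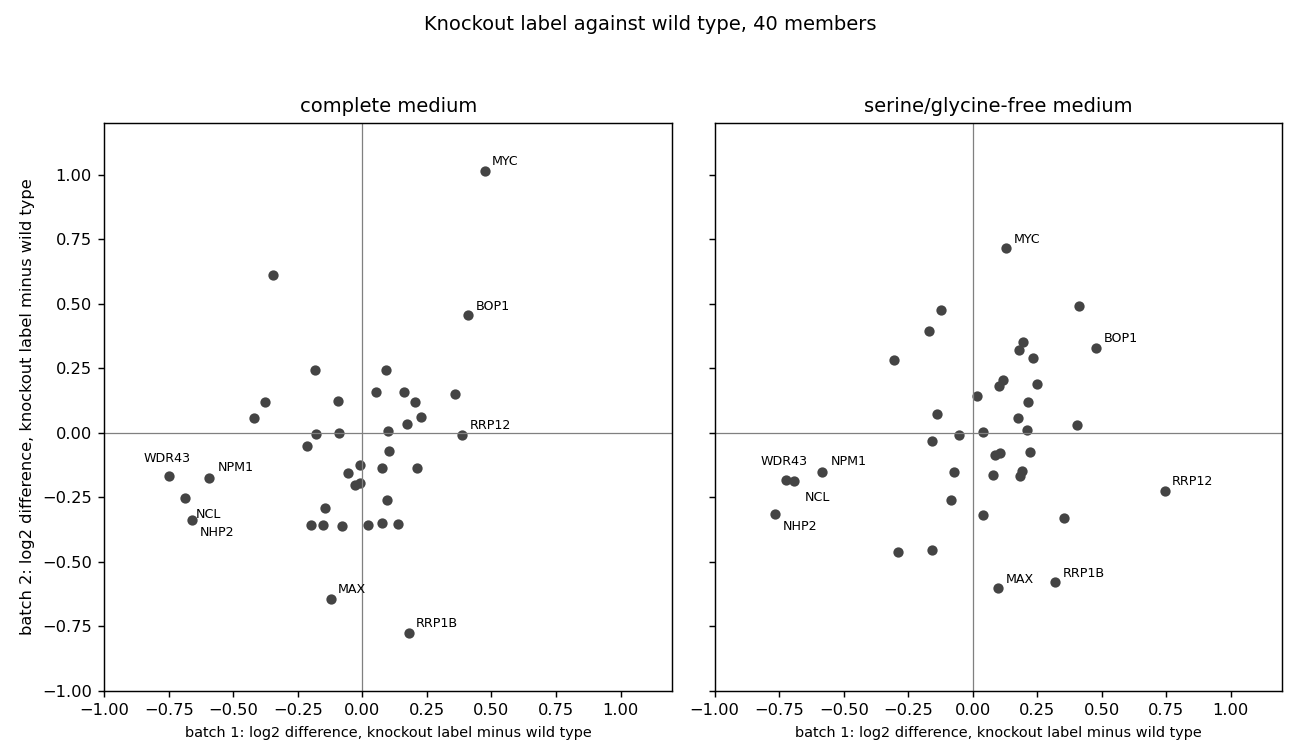
Log2 difference between the knockout label and wild type for the 40 members in batch 1 (horizontal axis) and batch 2 (vertical axis), in complete (left) and serine/glycine-free medium (right). NHP2, NCL, NPM1 and WDR43 lie at lower left in both panels, and MYC and BOP1 at upper right.

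The medium response was also compared between batches, a comparison added after the data were seen. The batches differ in KRT19, SPARC, COL3A1 and TWIST1 as well, as given above, and the part of that in any difference was not tested. Pair responses across the 40 members correlated at 0.81 and 0.80 within a batch (Pearson's r, between the 2 labels) and at 0.48 to 0.64 across batches, beside 0.54 and 0.57 within and 0.32 to 0.39 across for 8909 protein-coding genes with a mean of 5 FPKM or more. These are descriptions over genes, which share libraries. The fit over 4 pairs counted the 2 pairs of a batch as separate, so its SE and p-values may be too small. The response of batch 2 minus that of batch 1 was tested with the pair as a block, and 0 members were called, beside 0.0556% of all genes higher (10) and 0.05% lower (9). At an unadjusted p under 0.05 there was 1 member higher, DDX10 at 0.49 ± 0.17, and there were 4 lower (6.22% and 4.51% of all genes). The 4 were MYC at −0.997 ± 0.19 (limma adjusted p = 0.389), NOLC1 at −0.62 ± 0.15, GNL3 at −0.45 ± 0.11 and WDR12 at −0.55 ± 0.18. Both serine/glycine-free libraries lay above both complete libraries in 27 members in batch 1 (beside 19.8% of all genes) and in 22 members in batch 2 (beside 17.8%).

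Lists of other genes in the same pathways were read in the same fit. Of 40 other small subunit factors 0 were called, the median was 0.22 and 20 were higher in all 4 pairs. EMG1, a methyltransferase of small-subunit ribosomal RNA, led them at 0.72 ± 0.09 (limma adjusted p = 0.0560), followed by DIEXF at 0.59 ± 0.10 (adjusted p = 0.0856). Among 42 tested other large subunit factors 1 was called, RSL24D1, which rose by 1.05 on the log2 scale (limma adjusted p = 0.0289). The level of RSL24D1 (FPKM) went from 31.4 to 69.3 in wild type and from 28.6 to 50.5 in the knockout label in batch 1, and from 38.1 to 88.6 and from 30.7 to 67.3 in batch 2, with no overlap between media. The list's median was 0.31, and 25 were higher and 2 lower in all 4 pairs, with GNL2, a nucleolar GTPase, second at 0.50 (adjusted p = 0.0596). In total 14 other RNA polymerase I genes had a median of 0.19 and 6 higher in all 4 pairs, with POLR1E at 0.45 and TAF1A at 0.57, and 20 other RNA polymerase III genes had a median of 0.09, with POLR3C at 0.68 and POLR3E at 0.39, and neither list held a called gene.

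The same reading of genes outside subunit assembly gave smaller medians. The 40 cytosolic ribosomal proteins had a median of 0.12, with 0 called and 22 higher in all 4 pairs, led by RPL10A (0.33) and RPL4 (0.34). MYC target enzymes outside the nucleolus, 16 genes, had a median of 0.01, with 0 called, 4 higher in all 4 pairs and 4 lower. Of these 16 genes, ODC1, the first enzyme of polyamine synthesis, had 0.72 (limma adjusted p = 0.0740) and HSPE1, a mitochondrial chaperonin, had −0.51 (adjusted p = 0.0655). Of 10 other MYC network genes 7 were tested, with a median of −0.06 and 0 called, and MXD1, a repressive partner of MAX, had 0.81 (adjusted p = 0.0941) while MXD3 had −0.27. Cell type markers were not called with the medium, apart from the epithelial CLDN4, which fell by 1.14 on the log2 scale. The marker sums of simple epithelium and of mesenchyme differed between the media of a pair by far less than between batches.

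**Figure D5:**
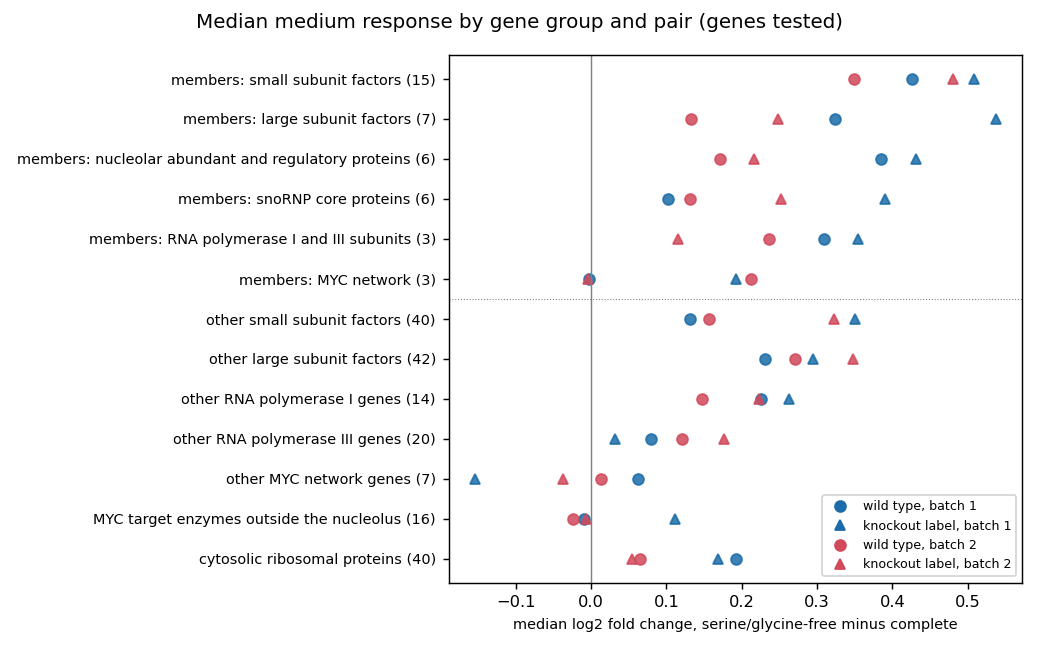
Median log2 fold change (serine/glycine-free minus complete medium, horizontal axis) over each role group of members and each list of other genes, with the number of genes tested in brackets and 1 marker for each genotype label and batch. Small subunit members lie at 0.35 to 0.51 and cytosolic ribosomal proteins at 0.05 to 0.19.

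Many members lie at loci shared with other listed genes. At 28 members the locus listed in hg19 is shared with another listed gene, and 12 members are alone at their locus. By GENCODE type, 15 share it with another protein-coding gene and 7 with a small nucleolar RNA. UTP20 shares its locus with snoU13, which is not among those 7. WDR43 (listed locus chr2:29117509-29171088), RRP12 (chr10:99116115-99185831), DDX21 (chr10:70715884-70744829) and DKC1 (chrX:153991031-154005964) all share theirs, none of them with another protein-coding gene. The locus of WDR43 also holds SNORD53, SNORD92 and a Y RNA, and that of DKC1 holds SNORA36A and SNORA56. A Y RNA is listed at the locus of RRP12 and RN7SL373P at that of DDX21. The part of these genes in the levels was not tested. MYC, POLR1B (chr2:113299492-113334635) and RRP9 (chr3:51967446-51975957) are alone at theirs. The sources used here do not say how reads were divided among overlapping genes.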

How the data were processed

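Illumina libraries of total RNA from 8 hTERT-RPE1 cultures were sequenced, per the labels. For each batch the authors deposited 1 table of FPKM values, with 57884 genes in 4 libraries, whose header names no unit. The submitters' processing notes name TopHat, Cufflinks, Cuffdiff and hg19, without the versions and settings. Because the 2 tables were normalized apart, media and genotype labels were compared inside a batch. Loci are those listed for hg19, with starts counted from 1. Types of genes follow GENCODE 29, matched by Ensembl ID for 95.8% of tested genes, and promoter windows follow RefSeq (GRCh38.p14).

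Genes were tested where 2 or more libraries reached 1 FPKM (17994 genes, of which 13080 protein-coding), on log2(FPKM + 1), which shrinks the changes of low genes. Tests were two-sided and run with limma 3.58.1 under R 4.3.3. The empirical Bayes prior was trended, and the Benjamini-Hochberg method adjusted p over every tested gene (threshold 0.05). For the medium response over 4 pairs the pair was the block (3 residual and 2.72 prior degrees of freedom). Responses by genotype label, their difference and the contrasts of labels came from a fit of 4 groups blocked by batch (3 and 2.97). Equal replicate numbers mark 1 batch of treated cells, per the series text, and so pair the libraries. Deviations from group means correlated at 0.650 to 0.775 between libraries of equal number. The fits, apart from the one between batches, were run on simulated data with noise drawn separately for each library. Those data lacked responses shared within a batch. For all but the fit over 4 pairs they also lacked label differences that vary by batch. They therefore do not show how the fits behave on these libraries.

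Members and lists were chosen with earlier results of these data known. Per-library values are given for MYC, MAX and MXD4, for members that pass in a comparison, for the 2 members of each role group with the smallest p over 4 pairs, and for the members with the smallest and largest p in the difference of responses. Each list of other genes gives up to 2 genes with the smallest p. Other members are named by their change, and NHP2, BOP1 and DDX10 were given per library after their values were seen. PPAN, MKI67IP, MYCL1 and PECAM1 of the lists were not matched by symbol. Alternatives covered the pseudocount, the filter, scaling, the genes tested, the block, the prior and left-out libraries.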

Additional observations from a re-analysis of the deposited data

Results flagged for a closer look

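In 4 members both pairs of batch 1 changed one way with the medium and both pairs of batch 2 the other way. The share of all genes that did so was not counted, so this is not read as a trait of the members. NOLC1, a chaperone of small nucleolar RNPs, had a mean log2 change of 0.42 in batch 1 and −0.20 in batch 2. BYSL, an adaptor of small-subunit maturation, had −0.18 in batch 1 and 0.17 in batch 2. NOP56, a scaffold of box C/D particles, had 0.25 and −0.0949, and FBL, the methyltransferase of the same particles, had 0.11 and −0.0041. The batch 2 changes of FBL were close to 0, at −0.0021 in wild type and −0.0061 in the knockout label. The test of the difference between batches, added after the data were seen, called 0 of them, with differences of −0.62 ± 0.15 for NOLC1 (limma adjusted p = 0.391), 0.36 ± 0.17 for BYSL (adjusted p = 0.539), −0.35 ± 0.15 for NOP56 (adjusted p = 0.507) and −0.11 ± 0.11 for FBL (adjusted p = 0.747).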

How the results depend on the processing

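The 4 calls kept their direction under all 17 alternatives run and were each lost in 13, kept with a pseudocount of 0.1, FPKM of 1 or more in all 8 libraries, median-ratio scaling and protein-coding genes only. Log2 changes ran from 0.93 to 1.00 (WDR43), 0.77 to 0.83 (DDX21), 0.62 to 0.71 (DKC1) and 0.97 to 1.13 (RRP12). The member median over 4 pairs ran from 0.30 to 0.40, and 30 to 32 members were higher in every remaining pair with a library left out (28 under scaling). Over 4 pairs, genes called higher and lower (75 and 11) became 47 and 5 with a pseudocount of 0.1, 0 and 0 with no filter, 423 and 209 with the filter on all 8 libraries, 413 and 199 with protein-coding genes only, 1 and 0 with no replicate block, 20 and 4 with the replicate block by batch alone, 0 and 0 with no trend, 0 and 0 without both batch 2 libraries labelled knockout and 0 to 4 and 0 to 4 with 1 library left out. Genes lower were 21 under scaling. Members called (4) became 12 with the filter on all 8 libraries or protein-coding genes only, and 0 with no filter, no replicate block, the replicate block by batch alone, no trend, without both batch 2 libraries labelled knockout and with 1 library left out. The filter on all 8 libraries and the protein-coding restriction test fewer genes, the latter without BOP1, and the left-out libraries leave fewer samples. For the other settings the cause was not tested.

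No member was called under any alternative in the other comparisons. In wild type, genes higher (7) became 0 without both batch 2 libraries labelled knockout and 6 to 11 with 1 library left out, and genes lower (3) became 1 with no filter, the filter on all 8 libraries, protein-coding genes only and without those libraries, 5 with the replicate block by genotype label within batch and 2 to 9 with 1 left out. In the knockout label, genes higher (2) became 1 with the filter on all 8 libraries or protein-coding genes only, 4 with the replicate block by genotype label within batch, 0 without those libraries and 2 to 9 with 1 left out. Genes lower (1) became 0 with the filter, protein-coding genes only and without those libraries, 2 under scaling, 3 with no trend and 0 to 4 with 1 left out. For the difference of responses, genes higher (5) became 2 with a pseudocount of 0.1, no filter or no replicate block, 0 with the filter on all 8 libraries or protein-coding genes only, 3 with the replicate block by genotype label within batch and 2 to 7 with 1 left out. Genes lower (6) became 1, 1, 1, 0 and 0 in the first 5 of these and 1 to 4 with 1 left out. Between labels in complete medium, genes higher (2) became 1 with a pseudocount of 0.1 or no replicate block, 0 with no filter, the filter or protein-coding genes only, and 1 to 7 with 1 left out, and genes lower (4) became 1 with no filter, 0 with the filter or protein-coding genes only and 1 to 8 with 1 left out. In serine/glycine-free medium, genes higher (2) and lower (7) both became 0 with the filter or protein-coding genes only, and 2 to 6 and 0 to 9 with 1 left out. For the difference between batches, genes higher (10) and lower (9) became 3 and 3 with a pseudocount of 0.1, 0 and 0 with no filter, 0 and 1 with the filter, 4 and 4 with protein-coding genes only, and 0 and 0 with 1 left out.

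With 1 library left out, the member median was 0.27 to 0.37 in wild type, 0.0327 to 0.13 for the difference of responses, −0.0924 to −0.009999 between labels in complete medium and −0.16 to −0.0411 between batches. Under scaling it was −0.0190 between labels in complete medium and −0.16 between batches, and −0.12 between batches with a pseudocount of 0.1. Signs turned in MXD4 (−0.0139 under scaling, −0.0293 to 0.13 with 1 library left out), in UTP20 (−0.0343 under scaling, −0.0614 without both batch 2 libraries labelled knockout, −0.0614 to 0.0840 with 1 left out) and in MAX (−0.0490 to 0.0246 with 1 left out). Leaving out both of those libraries was not run for the difference of responses and the contrasts of labels, which then rest on 1 batch, nor were other blocks for the contrasts of labels and between batches. Depth is unknown, so no counting limit can be given.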
